A study of Mus musculus with 27 samples.

Results

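The comparison described here is between the liver of mice 2 days after their litters were weaned and the liver of mice still nursing at lactation day 10. It rests on 6 of the 27 libraries of a bulk RNA sequencing study of the mouse liver over a reproductive cycle: the 3 libraries whose titles begin with ID2 (involution day 2; ID2_224, ID2_31 and ID2_39) and the 3 whose titles begin with LAC (lactation; LAC_200, LAC_213 and LAC_240). All animals were wild-type Balb/C mice, bred at 10 to 12 weeks of age, with litter sizes evened out. The day-2 mice had been weaned somewhere between lactation days 10 and 14, so at sampling they were also further from birth than the lactation mice. Each library came from whole liver that was frozen and pulverised, so it mixes hepatocytes with the blood, vessel, immune and duct cells of the organ. Levels in the 4 libraries of nulliparous (never pregnant) mice, titled NUL, are given beside some genes as a point of reference and were not tested.

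In rodents, lactation is a state of large appetite, and the liver enlarges and processes the extra nutrients while the mammary gland draws glucose, lipid and amino acids from the blood for milk. The hepatocyte makes fatty acids and cholesterol through enzymes switched on by the sterol regulatory element-binding proteins, and disposes of amino acid nitrogen as urea. At weaning the suckling stimulus ends, the mammary gland involutes, and the demand for milk precursors stops.

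Counts summed to between 53061082 and 72090249 per library at day 2 and between 61234156 and 65680450 in lactation. Counting error adds to the spread of genes at low levels, among them the mitotic genes under 1 CPM described below. Per library, levels below are CPM (counts divided by the scaled library total, so that libraries of unequal depth can be compared), listed for ID2_224, ID2_31 and ID2_39 and then for LAC_200, LAC_213 and LAC_240. Fold changes are log2 (day 2 minus lactation) ± a standard error worked back from the F statistic of the test. A gene was called where its Benjamini-Hochberg adjusted p in edgeR's quasi-likelihood test was under 0.05. A gene named with an adjusted p kept its call when each of the 6 libraries was left out in turn, unless the text says otherwise. The labels do not say that the samples of a group came from separate mice beyond their numbers. The p-values rest on the spread between samples as estimated over all 27 libraries in 1 fit, not on that of the 6 alone.

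Among 16428 genes tested, 2648 were called, or 16.1%: 1393 were higher at day 2 (8.48% of the genes tested) and 1255 were lower (7.64%). These shares are the background for every count below. The median log2 fold change of all genes was 0.02, and the median size of the change among called genes was 0.60. Changes beyond a factor of 2 were seen in 618 called genes, of which 340 were higher and 278 lower. In 2558 of the called genes the CPM of the 2 groups did not overlap. The call itself favours such genes, and their share among all genes tested was not counted. Without a single library the count fell to between 1389 and 2160, with the lowest value without LAC_213, and 976 genes were called in all 6 of those fits.

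**Figure D1:**
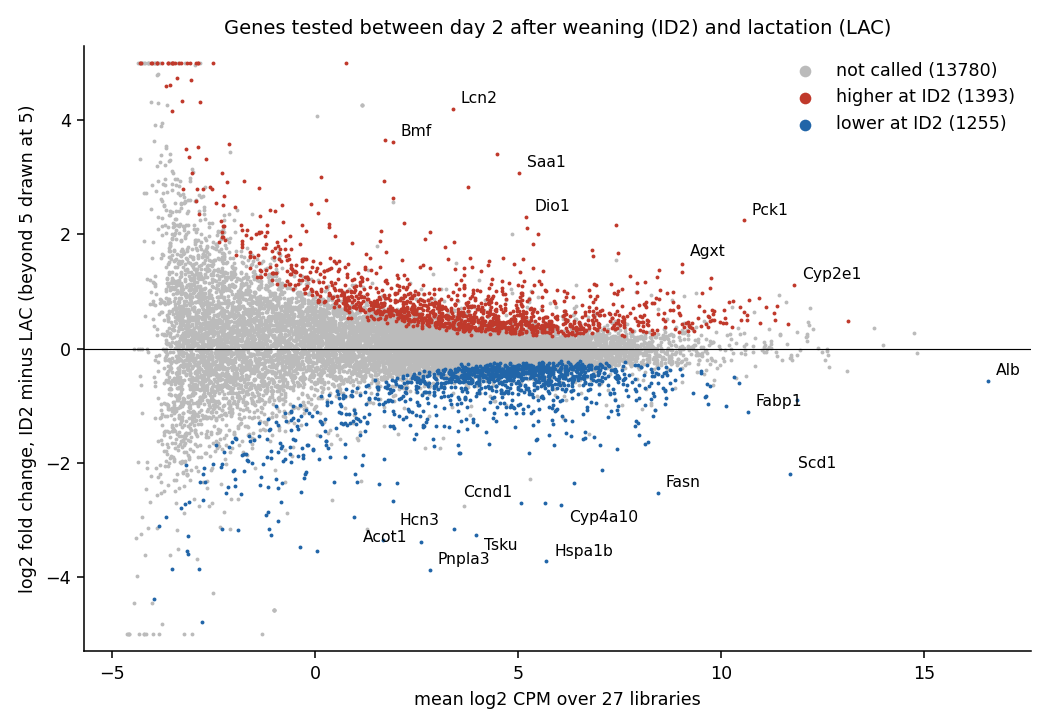
Each point is 1 of the 16428 genes tested, placed by its mean log2 CPM over the 27 libraries (x axis) and its log2 fold change from lactation to day 2 after weaning (y axis), with the 1393 genes called higher in red and the 1255 called lower in blue; changes beyond 5 are drawn at 5. Lipid synthesis genes (Fasn, Scd1, Pnpla3) lie far below 0 and Pck1, Agxt and Cyp2e1 lie above it among abundant genes.

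Some features of the libraries bear on the results. Library ID2_31 held pancreatic acinar transcripts: 24 tested marker genes of that cell summed to 2441 CPM there, against 10.6 and 18.0 CPM in the other day-2 libraries and 10.2 to 19.2 CPM in lactation. Of those markers 12 were called higher at day 2 and none was called without ID2_31, so these calls rest on that library and no result is drawn from them. Library ID2_39 stood apart in clock genes, with a clock score (mean log2 CPM of 6 clock output and repressor genes less that of 4 genes of the opposite phase) of 0.767, against −1.43 and −1.16 in the other day-2 libraries and −3.10 to −1.46 in lactation. The time of day of collection is not among the labels used here. Library LAC_213 had the lowest TMM scaling factor of the 27 libraries (0.8856), and of the 6 compared it had the largest median effective length (804.09 against 782.24 to 785.23 bases) and the largest share of counts in its top 20 genes (34.9% against 29.2% to 33.4%). It also had the highest summed level of the heat shock and ribosome assembly lists, and the part of these features in the results was not tested. Libraries ID2_224, LAC_213 and LAC_240 were recorded with 2 sequencing runs each, and the part of that was not tested either. Libraries ID2_31 and ID2_39 carry title numbers under 200, which no lactation library does. With a term for that number in the fit 1249 genes were called, and with the libraries numbered 200 and over alone, which leave 1 library at day 2, 395 genes were called.

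Genes of lipid synthesis were lower at day 2. Of 24 tested genes of fatty acid and triglyceride synthesis, 10 were called lower and none higher, and the median log2 fold change of the list was −0.78. Without ID2_224 there were 6 called lower. Fasn, the enzyme that assembles palmitate (chr11:120805846-120824547), had 215.7, 264 and 303 CPM at day 2 and 1445, 1191 and 1892 CPM in lactation. All day-2 libraries lay below all lactation libraries, 2 of them inside the nulliparous range of 244 to 471 CPM and 1 below it, and Fasn fell by 2.53 ± 0.59 on the log2 scale (adjusted p = 0.00631). Scd1, the desaturase that makes oleate, stood at 2027, 4134 and 2671 CPM against 14149, 13065 and 13200 CPM, a log2 change of −2.19 ± 0.46 (adjusted p = 0.00283). Among called genes only albumin lost more CPM, and the day-2 levels of Scd1 overlapped the nulliparous range of 2538 to 4134 CPM.

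Pnpla3, a lipid droplet protein under the same transcriptional control as the lipogenic enzymes, fell most among the called, moderately abundant genes (mean log2 CPM of 1 or more) whose groups did not overlap. Pnpla3 had 2.93, 3.52 and 4.23 CPM at day 2 against 51.1, 50.5 and 54.5 CPM in lactation, with 3.34 to 10.7 CPM in nulliparous liver. The log2 change of Pnpla3 was −3.87 ± 1.0 (adjusted p = 0.0122, and 0.0532 without ID2_224). Other enzymes along the same route fell with it: malic enzyme Me1, which supplies NADPH, by 1.76, Acaca, which makes malonyl-CoA, by 1.54, Gpam, which starts triglyceride assembly, by 1.57, and Elovl6, which lengthens palmitate, by 2.36 on the log2 scale. Elovl6 missed the threshold without ID2_224 or ID2_31, and both it and Pnpla3 (adjusted p = 0.0824) missed it with the title number as a term, at log2 changes of −2.41 and −3.86. Srebf1, which encodes the transcription factor of this programme, was not called, at 421, 365 and 521 CPM against 462, 423 and 578 CPM (adjusted p = 0.86).

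Cholesterol synthesis moved the same way. Of its 25 tested genes 16 were called lower and none higher, with every one of the 25 fold changes below 0 and a median of −0.84, and without ID2_224 there were 9 called lower. Together they summed to 3266 to 3909 CPM per library at day 2 and 5697 to 7081 CPM in lactation. Lss, which forms the first sterol ring of the pathway, had 40.1, 56.8 and 50.1 CPM against 154, 125 and 159 CPM, a fall of 1.58 ± 0.20 (adjusted p = 2.54e-05). Its nulliparous range was 44.1 to 72.3 CPM. Fdps and Mvd, which act on isoprenoid intermediates, fell by 1.69 and 1.66. Squalene epoxidase Sqle fell by 1.26 but was called in only 1 of the 6 fits without a library. Srebf2, the transcription factor that controls this pathway, was not called, with a log2 change of −0.04 (adjusted p = 0.868).

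The promoter of Hmgcs1, which makes HMG-CoA, is shown because it was the only 1 of 9 called cholesterol genes with a RefSeq promoter entry whose window held the letters TCACNCCAC, a sterol regulatory element, on either strand. Windows run from 250 bases before to 50 bases after the RefSeq start (GRCm38.p6), the 150 bases before the start are printed, and the match is in capitals.
Hmgcs1 (chr13:119690201-119690350, plus strand): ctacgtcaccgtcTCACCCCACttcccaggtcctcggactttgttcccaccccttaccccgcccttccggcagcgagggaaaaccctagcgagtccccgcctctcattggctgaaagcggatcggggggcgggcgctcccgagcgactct
None of the 8 tested genes of the list that were not called and had an entry held a match, and among all 27025 genes of the RefSeq set the share was 1.44%. Hmgcs1 itself fell by 0.84 ± 0.23 (adjusted p = 0.0162), from 582, 437 and 641 CPM to 263, 339 and 327 CPM, and missed the threshold without ID2_224 or LAC_240.

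Of 14 genes of fatty acid uptake and binding 6 were called lower and 1 higher, with 3 lower under the clock score term and none higher without ID2_224. Fabp1, the abundant fatty acid-binding protein of hepatocytes, had 1093, 1063 and 998 CPM against 2585, 2265 and 1932 CPM (log2 change −1.10 ± 0.16, adjusted p = 5.18e-05). The day-2 levels of Fabp1 were below the nulliparous range of 1884 to 2288 CPM as well. The acyl-CoA synthetases Acsl4, Acsl3 and Acsl5, which activate fatty acids, fell by 1.31, 1.46 and 0.87. Lpl, the lipase that releases fatty acids from circulating triglyceride, went from 102, 102 and 163 CPM to 33.0, 41.9 and 27.7 CPM (−1.84 ± 0.33, adjusted p = 0.000914), still above the 7.54 to 21.8 CPM of nulliparous liver. Abhd5, the activator of the triglyceride lipase, fell by 1.13 ± 0.14 (adjusted p = 7.79e-06). Lpl and Abhd5 belong to a list of 22 lipid droplet and lipase genes, of which 4 were called lower and 3 higher. Those called higher were Cidec and Cideb, which act on lipid droplets, by 1.54 and 0.35, and the hepatic lipase Lipc by 0.43. Cidec had 2.23, 4.34 and 1.92 CPM against 1.17, 1.05 and 0.71 CPM, and without ID2_31 its change was 1.09 (adjusted p = 0.13). Cidec and Cideb were each called in 3 of the 6 fits without a library, and Lipc in 5. Without LAC_213 there were 2 called lower and 1 higher, without ID2_224 1 higher, and with the clock score 2 lower. Mttp, which loads lipid onto nascent lipoproteins, fell by 0.69 ± 0.09 (adjusted p = 1.2e-05), the only 1 of 20 lipoprotein genes called lower. Apoa5, a plasma triglyceride regulator, rose by 0.64, and the sterol exporter subunit Abcg8 rose by 0.93, with an adjusted p of 0.0564 for Abcg8 without ID2_39. Abcg8 missed the threshold with either the title number or the clock score as a term, and Acsl5 with the clock score.

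Fatty acid oxidation did not move in 1 direction. Among 39 genes of oxidation and ketone synthesis 7 were called lower and 4 higher, and the median was −0.02. The lower count was 4 without ID2_39 or with the title number as a term, and 3 with the clock score. Several of the genes that fell are known targets of the fatty acid receptor PPAR alpha. Acot1, a cytosolic acyl-CoA thioesterase, had 2.06, 2.04 and 1.54 CPM against 18.5, 21.4 and 19.6 CPM, a fall of 3.39 ± 0.55 (adjusted p = 0.000347). Cyp4a10, a fatty acid omega-hydroxylase, had 71.8, 65.1 and 44.4 CPM against 361, 457 and 386 CPM, with 65.2 to 78.1 CPM in nulliparous liver (−2.73 ± 0.70, adjusted p = 0.0113, and 0.0548 without ID2_39). It missed the threshold with the title number as a term (−2.27, adjusted p = 0.105) and with the clock score. Counts of Acot1 and Cyp4a10 were fractional in all 6 libraries, so reads shared with similar genes may be split. Pdk4, Acaa1b and Ehhadh fell by 1.40, 0.96 and 0.75, Pdk4 with no call under the clock score term. Cpt1a, the gate of mitochondrial fatty acid entry, went the other way, from 157, 168 and 202 CPM to 376, 370 and 433 CPM (1.16 ± 0.21, adjusted p = 0.000601). The coactivator Ppargc1a rose by 1.12 ± 0.26 (adjusted p = 0.00451) and the ketone enzyme Bdh1 by 0.49. Ppara itself was not called (0.30, adjusted p = 0.324).

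In glucose metabolism Pklr fell and Pck1 rose. Pklr, the last enzyme of liver glycolysis, had 159, 194 and 190 CPM at day 2 against 585, 578 and 571 CPM in lactation (−1.68 ± 0.31, adjusted p = 0.000911). All day-2 libraries lay below all nulliparous libraries. Of 25 glycolysis genes 8 were called lower and 3 higher, with 3 lower without ID2_224, 4 without LAC_213 and 5 without ID2_39. Under the title number term 2 were called lower and 1 higher, and under the clock score term 4 and 1. Pck1, the enzyme that commits carbon to glucose production, rose from 682, 369 and 876 CPM to 3513, 2143 and 3481 CPM (2.25 ± 0.46, adjusted p = 0.00242). That is 4.74 times the lactation level, and the nulliparous range was 1245 to 2278 CPM. Of 15 glucose production genes 5 were called higher and 2 lower, with 3 called higher without ID2_39 or LAC_213 and none lower without ID2_224, ID2_31 or LAC_213 and 1 lower without ID2_39 or LAC_240. Either term left 2 called higher, and the title number left none lower. Foxo1, the transcription factor of the fasting response, rose by 0.57 ± 0.13 (adjusted p = 0.0042), whereas G6pc, the final phosphatase, was not called, at 643, 348 and 546 CPM against 482, 227.5 and 146 CPM (0.85 ± 0.47, adjusted p = 0.244). Trib3, a pseudokinase that binds the insulin effector AKT, rose by 1.08 ± 0.23 (adjusted p = 0.00178).

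**Figure D2:**
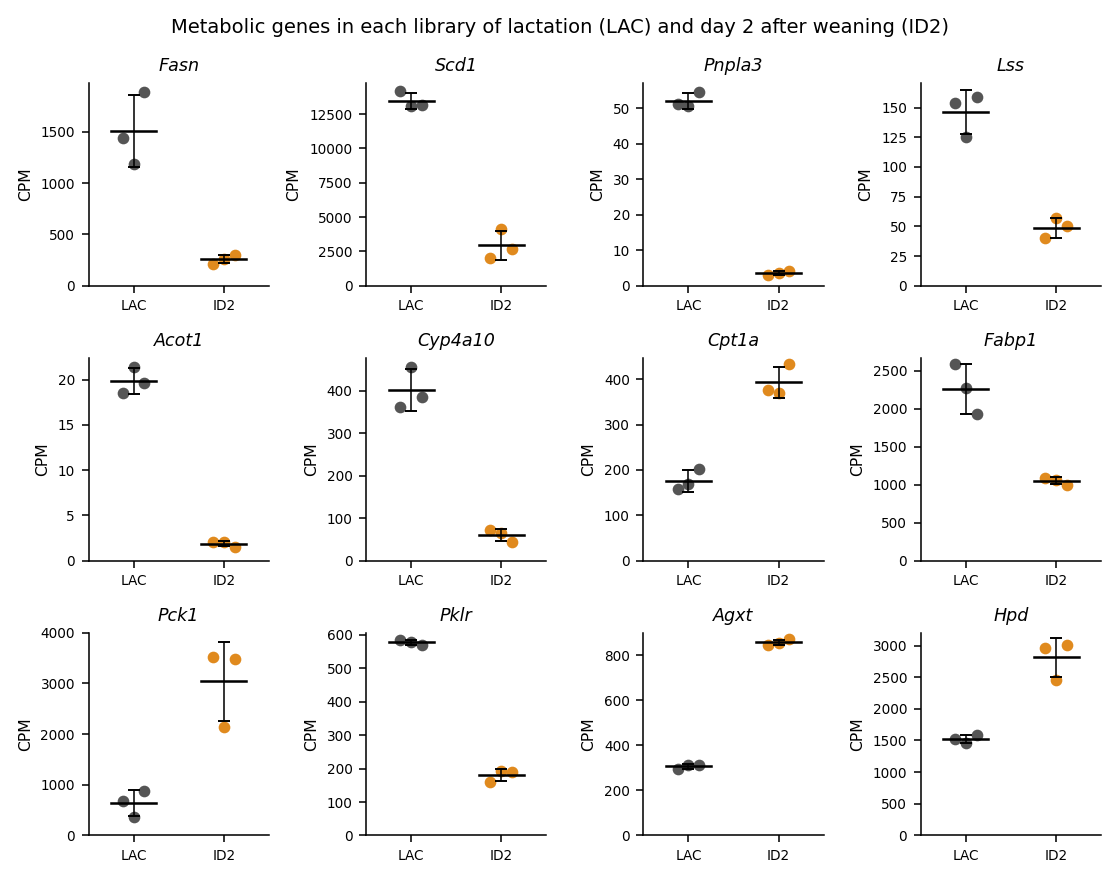
CPM of 12 metabolic genes (y axis, linear from 0) in the 3 lactation (LAC) and the 3 day-2 (ID2) libraries, with the group mean as a line and 1 SD as the bar. In every panel the points of the groups are separate: the lipid genes, Acot1, Cyp4a10, Fabp1 and Pklr are lower at day 2 and Cpt1a, Pck1, Agxt and Hpd are higher.

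Most enzymes that break down amino acids were higher at day 2, with 35 of 40 log2 fold changes above 0. Of 40 tested genes of amino acid catabolism and the urea cycle 23 were called higher and none lower (1 lower by DESeq2), with a median of 0.49, and between 19 and 21 were called higher without any single library. Their summed level was 30636 to 34435 CPM per library at day 2 and 21272 to 22585 CPM in lactation. Agxt, which clears glyoxylate and uses alanine (chr1:93135240-93145421), had the smallest p-value of all genes tested: 846, 854 and 870 CPM against 294, 313 and 314 CPM, a rise of 1.48 ± 0.13 (adjusted p = 1.16e-07). Both groups were tight, and the nulliparous range of 439 to 590 CPM lay between them. Oat, the ornithine aminotransferase, rose from 231, 225 and 189 CPM to 578, 527 and 563 CPM (1.37 ± 0.17, adjusted p = 1.05e-05). Sds, the serine dehydratase, rose by 1.28 ± 0.20 (adjusted p = 0.000129). The mitochondrial ornithine carrier Slc25a15 and the aspartate aminotransferase Got1 rose by 1.02 and 1.0.

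The rises covered several branches of the list. For tyrosine, Hpd rose by 0.88 ± 0.12 (adjusted p = 1.42e-05) and Fah by 0.44. For histidine, Hal and Amdhd1 each rose by 0.81, the latter with an adjusted p of 8.73e-07. In the urea cycle itself Ass1 rose by 0.63 ± 0.15 (adjusted p = 0.00444), from 2240, 2449 and 2604 CPM to 3436, 4094 and 3729 CPM. Cps1, the entry enzyme of the cycle, was 5730, 5907 and 6846 CPM against 4008, 4489 and 4813 CPM and missed the threshold (0.47 ± 0.17, adjusted p = 0.0626). Tat, the tyrosine aminotransferase, also missed it (0.73, adjusted p = 0.0896). Glul, which marks the hepatocytes around the central vein, stood at 656, 479 and 582 CPM against 629, 651 and 561 CPM (−0.10, adjusted p = 0.624). Among 24 methionine and folate-linked enzymes 6 were called higher and 3 lower: Mat1a, which makes S-adenosylmethionine in adult liver, rose by 0.75 ± 0.14 (adjusted p = 0.000604), Cth and Cbs of transsulphuration rose by 0.80 and 0.57, and Psph of serine synthesis fell by 0.67. The count called lower was 1 without ID2_31, ID2_39 or LAC_213 and with either term, and the count called higher was 3 with the clock score, under which Cbs was not called. Markers of hepatocytes around the portal vein, several of which are the same enzymes, were called higher in 9 of 16 and lower in 1 (none lower without ID2_31, ID2_39, LAC_200 or LAC_240, or with either term), and those around the central vein were called higher in 3 of 19 and lower in 2.

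Genes of protein folding were lower at day 2 in the cytosol and in the endoplasmic reticulum. Of 23 cytosolic heat shock genes 15 were called lower and none higher (median −0.79). Hspa1b, an inducible HSP70, had 18.6, 13.3 and 16.3 CPM at day 2 against 92.8, 278 and 265 CPM in lactation, a fall of 3.72 ± 0.78 (adjusted p = 0.00327), while nulliparous libraries ranged from 14.1 to 133 CPM. LAC_200 was the lowest of its group and still lay above every day-2 library. Hspa1b and its neighbour Hspa1a are near-identical copies, so the split of reads between them is uncertain. Hsp90aa1, the inducible HSP90, went from 480, 639 and 455 CPM to 195, 130 and 179 CPM (−1.64 ± 0.37, adjusted p = 0.00475), and its cofactor Hsph1 fell by 1.56 ± 0.37 (adjusted p = 0.00656). Hspa4l fell by 1.14 ± 0.18 (adjusted p = 0.000105). The constitutive Hspa8 (−0.64, adjusted p = 0.0728) and the heat shock factor Hsf1 (−0.14, adjusted p = 0.385) were not called. With a term for the title number 3 of the 23 were called lower, and Hspa1b (−2.70, adjusted p = 0.0693), Hsp90aa1 and Hsph1 were not among them. Without LAC_213 there were 8, and without ID2_31 there were 9.

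Promoters of 2 of the 15 members of this list called lower are shown. Matches to GAANNTTC, the core of the heat shock element, are in capitals.
Hspa1b (chr17:34959239-34959388, minus strand): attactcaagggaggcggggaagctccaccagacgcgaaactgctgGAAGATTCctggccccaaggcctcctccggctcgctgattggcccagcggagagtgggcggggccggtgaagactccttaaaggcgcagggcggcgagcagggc
Hspb1 (chr5:135887769-135887918, plus strand): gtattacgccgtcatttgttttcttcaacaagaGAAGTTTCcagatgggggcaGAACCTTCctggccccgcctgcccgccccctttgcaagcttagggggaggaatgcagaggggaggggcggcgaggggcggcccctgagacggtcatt
Of 13 called members with a promoter entry 8 held the core in their window, against 9.04% of all 27025 genes. Among the 5 members with an entry that were not called, 3 held it. Hspb1 had 3.17, 2.98 and 2.41 CPM against 6.02, 5.85 and 5.94 CPM (−1.05 ± 0.35, adjusted p = 0.0438) and was not called in any fit without a library or with either term.

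In the endoplasmic reticulum, where secreted proteins fold, 16 of 33 genes of folding and stress signalling were called lower and none higher (median −0.47). Sdf2l1, a cochaperone, had 25.6, 20.4 and 30.1 CPM against 75.5, 86.9 and 68.7 CPM (−1.60 ± 0.41, adjusted p = 0.0113, and 0.0554 without ID2_31). Dnajb9, a cofactor of the main chaperone, fell by 1.27 ± 0.25 (adjusted p = 0.00146). Hspa5, that main chaperone (BiP), had 935, 613 and 943 CPM against 1508, 1958 and 1508 CPM. The groups did not overlap and the log2 change was −1.0 ± 0.32 (adjusted p = 0.0366), but the gene was called in none of the 6 fits without a library. The nulliparous range was 1035 to 1812 CPM. Atf4 and the stress sensor Ern1 fell by 0.74 and 0.51, and Xbp1 was not called (−0.27, adjusted p = 0.14). Between 5 and 9 of the list were called lower without a single library, the lowest without ID2_31 and without LAC_213, and 5 were with a term for the title number, under which Sdf2l1 and Hspa5 were not called. There were 8 with no filter on low counts and 9 and 10 by limma on log2 TPM.

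The ER stress element, a composite sequence bound by the ATF6 branch, was found in the windows of 5 of 13 called members with an entry and in 4 of the 15 that were not called, against 0.137% of all genes of the RefSeq set. Those of Creld2 and Dnajc3 are shown because their matches lie on opposite strands.
Creld2 (chr15:88819496-88819645, plus strand): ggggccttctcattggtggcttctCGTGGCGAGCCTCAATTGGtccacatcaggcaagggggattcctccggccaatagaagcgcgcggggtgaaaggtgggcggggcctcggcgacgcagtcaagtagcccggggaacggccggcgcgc
Dnajc3 (chr14:118937782-118937931, plus strand): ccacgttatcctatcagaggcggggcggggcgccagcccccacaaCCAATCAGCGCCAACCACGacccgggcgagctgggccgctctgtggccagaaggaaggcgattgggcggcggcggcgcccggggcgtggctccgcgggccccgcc
Creld2, a resident of the compartment, had 43.7, 21.1 and 40.04 CPM against 96.1, 138 and 102 CPM (−1.68 ± 0.56, adjusted p = 0.0446), and the cochaperone Dnajc3 fell by 0.58 ± 0.19 (adjusted p = 0.0413). Neither was called in any fit without a library or with the title number as a term. A match of letters in a window does not show that a factor was bound there.

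Genes of ribosome assembly were called lower in 15 of 37 and higher in none (median −0.42), and without LAC_213, which was the highest library for most of those named, 4 were. Without ID2_31 there were 6, with the title number as a term 9 and by limma on log2 TPM 8. Gnl3, a nucleolar GTPase, had 14.0, 12.7 and 15.8 CPM against 22.2, 38.5 and 20.8 CPM (−0.94 ± 0.20, adjusted p = 0.00214). Nop16 fell by 0.49 ± 0.11 (adjusted p = 0.00335). Of 33 proteasome subunits 3 were called lower, with 1 without ID2_31, LAC_200 or LAC_213 or with the title number as a term. Of 41 nuclear-encoded subunits of the respiratory chain none was called in either direction, with a median of −0.01. At an unadjusted p under 0.05 edgeR's test found 2 of those 41. The fit of the 6 libraries alone called 1 lower, and DESeq2 called none of the 41. Their summed level was 8910 to 9202 CPM at day 2 and 8769 to 9730 CPM in lactation, which overlap.

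Mitotic transcripts dropped from levels that were already low. Of 40 cell cycle genes 20 were called lower and 1 higher (median −1.11). Cdc20, the activator of the anaphase-promoting complex, had 0.745, 0.745 and 2.31 CPM against 16.4, 11.3 and 15.8 CPM (−3.54 ± 0.51, adjusted p = 8.65e-05, and a change of −4.28 without ID2_39), with 1.07 to 4.50 CPM in nulliparous liver. Kif20a, a kinesin of cytokinesis, had 1.32, 1.20 and 2.23 CPM against 7.93, 6.33 and 9.52 CPM (−2.33 ± 0.34, adjusted p = 4.99e-05). Cyclin B1 (Ccnb1), Cenpf and Plk1 fell by 3.16, 3.01 and 2.86. Of the 6 MCM helicase genes of DNA replication Mcm7 was called lower (−0.35, and in 1 of the 6 fits without a library) and the others were not called. Pcna, the replication clamp, was not called, and thymidine kinase Tk1 rose by 0.51 ± 0.14 (adjusted p = 0.0114). Mcm7 was called with neither term, and Tk1 was not called with the clock score. Mki67, a general marker of cycling cells, had 7.22, 7.02 and 13.4 CPM against 17.6, 15.2 and 23.8 CPM, separate groups that did not pass the test (−1.04 ± 0.54, adjusted p = 0.209). In bulk liver, fewer cycling cells and less RNA per cycling cell cannot be told apart.

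Upstream of division, Ccnd1, the cyclin that carries cells through G1, had 25.8, 17.6 and 25.2 CPM against 105, 185 and 157 CPM (−2.70 ± 0.40, adjusted p = 0.000152), and the nulliparous libraries reached from 26.8 to 83.7 CPM. Gadd45b, a stress-responsive growth regulator, fell by 2.36 ± 0.43 (adjusted p = 0.000828). Of the inhibitors, Cdkn1a fell by 1.03 (adjusted p = 0.042) but was called in only 2 of the 6 fits without a library and with neither term, and the pocket protein Rbl2 rose by 0.49 ± 0.10 (adjusted p = 0.00137).

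**Figure D3:**
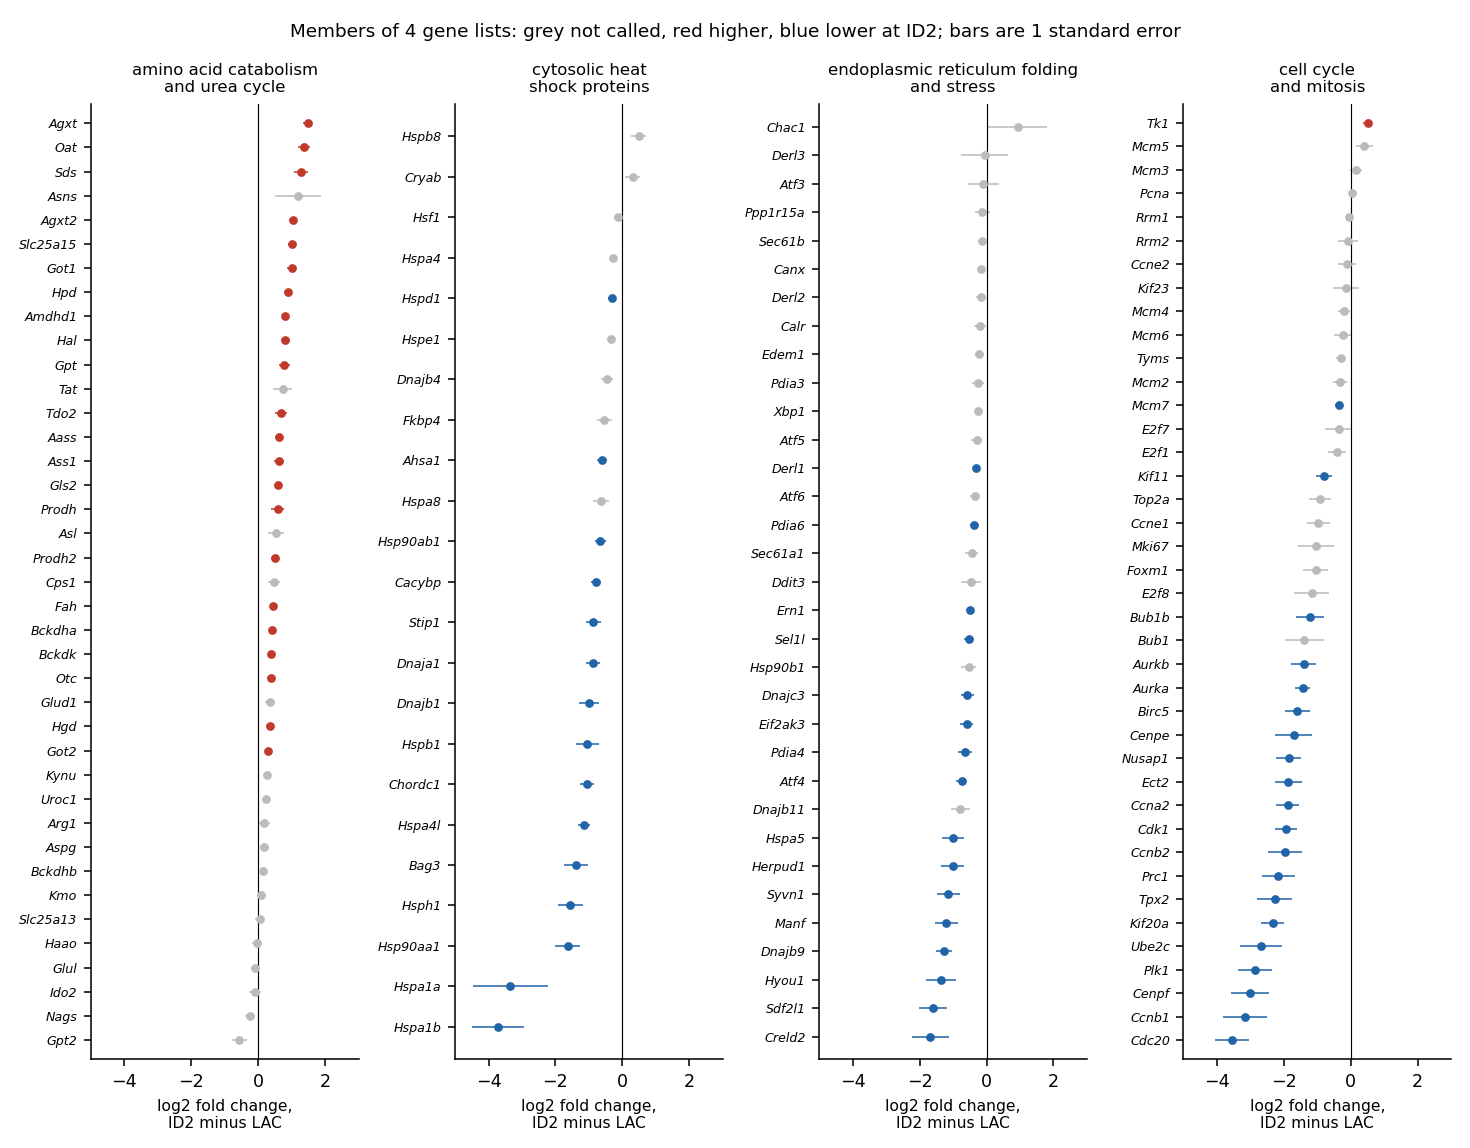
Log2 fold change from lactation to day 2 (x axis, bars 1 standard error) of tested members of 4 gene lists, 1 called amino acid enzyme left out, with called genes in red (higher) or blue (lower) and the others in grey. Of the amino acid enzymes drawn 34 of 39 sit to the right of 0 and 22 are called, and 15 of 23 heat shock, 16 of 33 endoplasmic reticulum and 20 of 40 cell cycle genes are called to the left.

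Among 36 genes of the BCL2 family and cell death 7 were called higher and 3 lower, with 4 higher and 1 lower without LAC_213 and 1 lower without ID2_31 or with the title number as a term. The largest rises were in BH3-only proteins, which trigger the mitochondrial route of apoptosis. Bmf had 14.6, 6.70 and 7.24 CPM at day 2 against 0.673, 0.636 and 1.0 CPM in lactation, a rise of 3.62 ± 0.77 (adjusted p = 0.00358), with 1.94 to 15.3 CPM in nulliparous liver. Bcl2l11 (BIM) rose by 1.54 ± 0.29 (adjusted p = 0.000895), from 3.07, 2.08 and 2.08 CPM to 8.94, 4.67 and 7.51 CPM. The executioner caspase Casp6 rose by 0.79 ± 0.15 (adjusted p = 0.000604). Bax, a pore-forming effector, fell by 0.74 ± 0.12 (adjusted p = 0.000144), and its partner Bak1 was higher by 0.39 (adjusted p = 0.0314) with a call in 1 of the 6 fits without a library and with neither term. The survival genes Mcl1 (−0.03, adjusted p = 0.852) and Bcl2l1 (0.09, adjusted p = 0.627) were not called. Transcript levels of these genes are not a measure of how many cells died.

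Acute phase genes, which hepatocytes switch on under inflammatory cytokines, were called higher in 13 of 28 and lower in none (1 lower by DESeq2), with a median of 0.87. ID2_39 was the highest library for several of them. Saa1, a serum amyloid A, had 19.7, 21.5 and 82.7 CPM against 5.40, 4.85 and 4.40 CPM (3.08 ± 0.98, adjusted p = 0.0375), with a change of 2.08 and an adjusted p of 0.194 without ID2_39 and a call in 2 of the 6 fits without a library and with neither term, and 9.08 to 88.5 CPM in nulliparous liver. Lcn2, an iron-siderophore binder, had 16.6, 11.7 and 79.9 CPM against 1.98, 1.86 and 2.03 CPM (4.20 ± 0.94, adjusted p = 0.00495). Without ID2_39 the change of Lcn2 was 2.86 (adjusted p = 0.0397). Saa2, a close copy of Saa1, had 16.1, 19 and 67.2 CPM against 3.95, 3.22 and 2.39 CPM (3.42 ± 1.04, adjusted p = 0.03), with a change of 2.46 and an adjusted p of 0.146 without ID2_39 and a call in 2 of the 6 fits without a library. Lrg1, a leucine-rich plasma glycoprotein, rose by 2.16 ± 0.54 (adjusted p = 0.0102), from 64.8, 70.9 and 67.1 CPM to 215.2, 140 and 553 CPM. Without ID2_39 its change was 1.40 (adjusted p = 0.0898). Neither Saa2 nor Lrg1 was called with the title number or the clock score as a term. Without ID2_39, 9 of the 28 were called higher, and without ID2_31, 15. Members with less spread rose too: Serpina3n by 0.74 ± 0.13 (adjusted p = 0.000415), Saa4 by 1.02 ± 0.17 (adjusted p = 0.000294) and the endotoxin-binding protein Lbp by 1.14 ± 0.23 (adjusted p = 0.00195). Orm1, an abundant acid glycoprotein, was not called (0.03, adjusted p = 0.955), while its low-level relative Orm3 rose by 1.89 ± 0.46 (adjusted p = 0.00811). Stat3, the factor that relays interleukin 6 signals, rose from 84.9, 82.3 and 107 CPM to 153, 127 and 205 CPM (0.82 ± 0.14, adjusted p = 0.000267), and its feedback inhibitor Socs3 missed the threshold (1.04, adjusted p = 0.0673). Of 34 complement and coagulation genes 10 were called higher and none lower, among them C4b (0.86 ± 0.17, adjusted p = 0.00133) and F11 (0.74 ± 0.11, adjusted p = 4.95e-05), with 5 without ID2_39 and 6 without LAC_200 or LAC_213 or with either the title number or the clock score as a term. The STAT element TTCNNNGAA was found in the windows of 3 of 12 called acute phase genes with an entry and 4 of 10 not called, against 9.55% of all genes.

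Interferon-stimulated genes were called higher in 19 of 31 and lower in 1 (median 0.74), with 8 to 21 called higher without a single library, the lowest without LAC_213 and the next, 9, without ID2_39. Zbp1, a sensor of nucleic acids, had 15.5, 13 and 25.7 CPM against 6.09, 4.47 and 4.33 CPM (1.86 ± 0.33, adjusted p = 0.000723). The guanylate-binding protein Gbp2 had 11.2, 11.6 and 13.1 CPM against 4.43, 3.37 and 4.33 CPM (1.57 ± 0.29, adjusted p = 0.000768), within the nulliparous 7.06 to 12.5 CPM in 2 libraries. Bst2, a membrane tether of budding virus, fell by 0.51 ± 0.12 (adjusted p = 0.00608). With the clock score as a term 5 of the 31 were called higher, and with the title number as a term 8 were. Of 22 genes of MHC class I and II presentation 7 were called higher and none lower, such as H2-T23 (0.57 ± 0.13, adjusted p = 0.00332), with 2 called higher without LAC_213, 3 without ID2_39, 2 with the title number as a term and 1 with the clock score.

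Markers of other cell types were counted in the same way. Kupffer cell and macrophage markers were called higher in 17 of 27 and lower in none, with a summed level of 909 to 1068 CPM at day 2 and 633 to 797 CPM in lactation. Sinusoidal endothelial markers were called higher in 12 of 23 (757 to 782 against 556 to 661 CPM) and stellate cell and fibroblast markers in 6 of 21 (849 to 899 against 717 to 744 CPM). None of those lists had a member called lower. In the macrophage list Adgre1 (F4/80) had 17.0, 14.6 and 17.3 CPM against 13, 9.37 and 9.31 CPM (0.62 ± 0.15, adjusted p = 0.00704, and 0.05 without LAC_213), with a call under neither term. Flt4, an endothelial growth factor receptor, rose by 0.65 ± 0.11 (adjusted p = 0.000203). T and NK cell markers were called higher in 3 of 27, with none without ID2_224 or LAC_240 or with the title number as a term. Neutrophil markers were called higher in 2 of 18, with 1 under either term or without any library but ID2_31, and bile duct markers in 2 of 14, with none without ID2_224 or LAC_213 or with the title number as a term. Those shares lie near that of all genes tested (8.48%). Erythroid and platelet markers were called in none of 9 and none of 7 by edgeR's test (2 and 0 at an unadjusted p under 0.05, and none by DESeq2). With the clock score as a term 1 erythroid marker was called lower. The caseins Csn2 and Csn3 and the whey protein gene Wap, defining transcripts of the lactating mammary gland, had 0 counts in all 6 libraries. Glycam1, a mucin of the same list that lymph node vessels also make, reached 336 counts in the highest library. Hepatocyte markers were called higher in 3 of 14 and lower in 1, which was albumin. Their sum was 195734 to 220713 CPM at day 2 against 243326 to 292441 CPM, made up mostly of albumin. The part of these markers in the immune and matrix results was not tested. With a term for the title number 7 of the macrophage and 6 of the endothelial markers were called higher, and without LAC_213 there were 6 and 5, with 1 of the stellate markers. Without ID2_39 there were 7 of the macrophage and 7 of the endothelial markers, without LAC_240 8 of the macrophage markers, and without ID2_224 9 of them. Of the stellate markers 2 were called without ID2_31 or LAC_200 and 1 with either term, and the clock score left 6 of the macrophage and 7 of the endothelial markers.

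Albumin is the most abundant liver transcript, and its share of the library moved. Alb had 124205, 113939 and 122320 CPM at day 2 against 168332, 203208 and 159800 CPM in lactation, and 74654 to 98164 CPM in nulliparous liver. It fell by 0.56 ± 0.16 (adjusted p = 0.0144) and missed the threshold without ID2_31 (0.0576) or LAC_213 (0.103) and with either the title number or the clock score as a term. Summed over all called genes, those lower at day 2 lost 106787 CPM and those higher gained 52343 CPM. Ahsg (fetuin A), another secreted protein, had 12483, 10089 and 12138 CPM against 8585, 8221 and 7926 CPM (0.49 ± 0.13, adjusted p = 0.0134), and missed the threshold without ID2_224 or ID2_39 and with the clock score as a term.

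**Figure D4:**
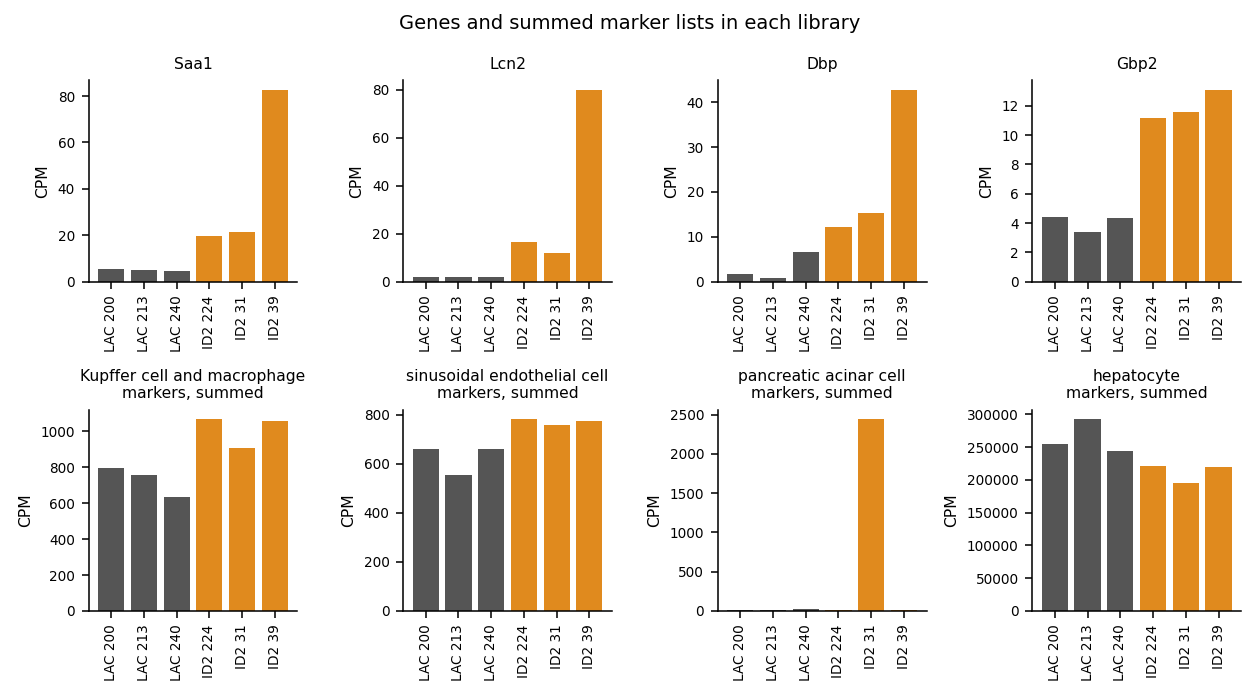
CPM (y axis, linear from 0) in each lactation (grey) and day-2 (orange) library of 4 genes and of 4 marker lists summed over their tested genes. Library ID2 39 is highest for Saa1, Lcn2 and Dbp, library ID2 31 stands apart for pancreatic acinar transcripts (2441 CPM), and macrophage and endothelial sums are higher in all 3 day-2 libraries.

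Receptors of the pituitary hormones of lactation and growth rose. Prlr, the prolactin receptor, had 453, 443 and 539 CPM at day 2 against 333, 364 and 331 CPM (0.48 ± 0.11, adjusted p = 0.00335), above the nulliparous 301 to 397 CPM. Ghr, the growth hormone receptor, rose by 0.63 ± 0.12 (adjusted p = 0.00074), from 291, 283 and 259 CPM to 471, 425 and 394 CPM. Stat5b, which both receptors activate, rose by 0.49 ± 0.12 (adjusted p = 0.00495, and 0.052 without LAC_213). The feedback inhibitors Cish and Socs2 varied widely within groups, with Cish at 27.8, 19 and 13.8 CPM against 8.69, 13.2 and 37.3 CPM, and neither was called (adjusted p = 0.983 and 0.728). Igf1 rose by 0.40 ± 0.11 (adjusted p = 0.0185) and its carrier subunit Igfals by 0.58, each with a call in 3 of the 6 fits without a library and with neither term. Prlr was not called with the clock score as a term. In all, 7 of 25 genes of prolactin and growth hormone signalling were called higher and 1 lower, with 4 higher without ID2_224 or with the clock score and none lower with the title number.

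Dio1, the deiodinase that activates thyroid hormone in liver, had 27.9, 29.4 and 52.3 CPM against 7.17, 10.9 and 4.14 CPM (2.30 ± 0.41, adjusted p = 0.000911) and stayed under the nulliparous 57.3 to 93.4 CPM. Of 12 genes of thyroid hormone handling 4 were called higher and none lower, with 2 higher without LAC_213 or with the title number as a term. Among secreted factors Tsku (tsukushi), a small leucine-rich protein, had 5.99, 2.54 and 10.3 CPM against 41.1, 88.8 and 48.3 CPM (−3.26 ± 0.76, adjusted p = 0.0065), under the 18.2 to 36.6 CPM of nulliparous liver, and missed the threshold with the title number as a term (−3.06, adjusted p = 0.052). The activin subunits split: Inhba fell by 1.45 ± 0.32 (adjusted p = 0.00434) and Inhbe rose by 1.36 ± 0.32 (adjusted p = 0.0068). Inhbe was called with neither term, and Inhba was not called with the clock score. Hepcidin (Hamp), the hormone that blocks iron export, rose from 237, 529 and 279 CPM to 749, 863 and 563 CPM (1.06 ± 0.22, adjusted p = 0.00213), while ferritin light chain Ftl1 fell from 6213, 5413 and 5134 CPM to 3268, 2839 and 2897 CPM (−0.90 ± 0.12, adjusted p = 1.63e-05).

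Detoxification genes moved in both directions. Of 44 conjugation and antioxidant genes 14 were called lower and 7 higher, with 4 higher without ID2_224, ID2_39 or LAC_240. Under the title number term 8 were called lower, and under the clock score term 7. Gstp1, a glutathione transferase, had 163, 170 and 186 CPM against 413, 440 and 401 CPM (−1.27 ± 0.14, adjusted p = 1.83e-06), and Gstm3 fell by 1.71 ± 0.31 (adjusted p = 0.000823). Several genes of this family are close copies, and counts between them may be shared. Nfe2l2, Txnrd1 and Srxn1, 3 members named after their values were seen, fell by 0.66, 0.56 and 0.53. Cyp2e1, the ethanol-oxidising P450 of the central zone, rose from 1460, 1617 and 1408 CPM to 3875, 2944 and 2906 CPM (1.12 ± 0.21, adjusted p = 0.000726), with 1 of the 3 libraries inside the nulliparous range of 3079 to 5054 CPM. Of 33 P450 genes 5 were called higher and 5 lower, with 3 higher without ID2_224, 3 lower without ID2_31, ID2_39, LAC_200 or LAC_240, and 1 lower with the title number as a term. Of 24 bile acid genes 1 was called higher (2 with the clock score) and 2 lower, with 1 lower without ID2_224, ID2_39 or LAC_213 or with either term. Cyp7a1, the rate-limiting enzyme of bile acid synthesis, had 49.8, 69.8 and 134 CPM against 174, 206 and 90.8 CPM, groups that overlap (−0.89, adjusted p = 0.368).

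Of 41 collagens and matrix proteins 5 were called higher and 2 lower, with 0 to 12 called higher without a single library, the highest without LAC_240 and the lowest without LAC_200 or LAC_213, and 2 without ID2_31 or ID2_39. The title number left none called higher and the clock score 1, DESeq2 called 8 higher, and 1 was called lower without ID2_224 or LAC_240. Col3a1, a fibrillar collagen, had 43.2, 40.3 and 40.4 CPM against 13.2, 12.4 and 28.7 CPM (1.19 ± 0.30, adjusted p = 0.00957) and missed the threshold without LAC_200 or LAC_213 and with either term. Among 35 proteases, inhibitors and crosslinking enzymes 9 were called higher and 2 lower, with 3 called higher without LAC_213, 5 without ID2_224 or ID2_39, 4 with either term and 4 by limma on log2(TPM + 1). The lower count was 1 without ID2_31, ID2_39 or LAC_213 and with either term. The gelatinase Mmp2 rose by 1.38 ± 0.27 (adjusted p = 0.00102), and the collagen prolyl hydroxylase P4ha2 fell by 1.20 ± 0.21 (adjusted p = 0.000318). Clock genes were called higher in 3 of 21 and lower in 3. The higher count was 0 without LAC_213, 1 without ID2_39 or LAC_200, 5 without LAC_240 and 0 with the title number as a term. The clock score is made from genes of this list, so its term says nothing about their calls. The lower count was 1 without ID2_39, LAC_200 or LAC_213 and with the title number as a term. Dbp, a clock output factor, had 12.1, 15.2 and 42.8 CPM against 1.67, 0.825 and 6.65 CPM (2.94 ± 0.90, adjusted p = 0.0312), with an adjusted p of 0.146 without ID2_39 and a call in 3 of the 6 fits without a library and none with the title number as a term. Its change was 2.16 without ID2_39 and 4.22 without LAC_240. With the clock score as a term in the fit, 1770 genes were called over the whole table, with 18 of the 40 amino acid enzymes called higher and 17 of the 25 cholesterol genes and 22 of the 40 cell cycle genes called lower.

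**Figure D5:**
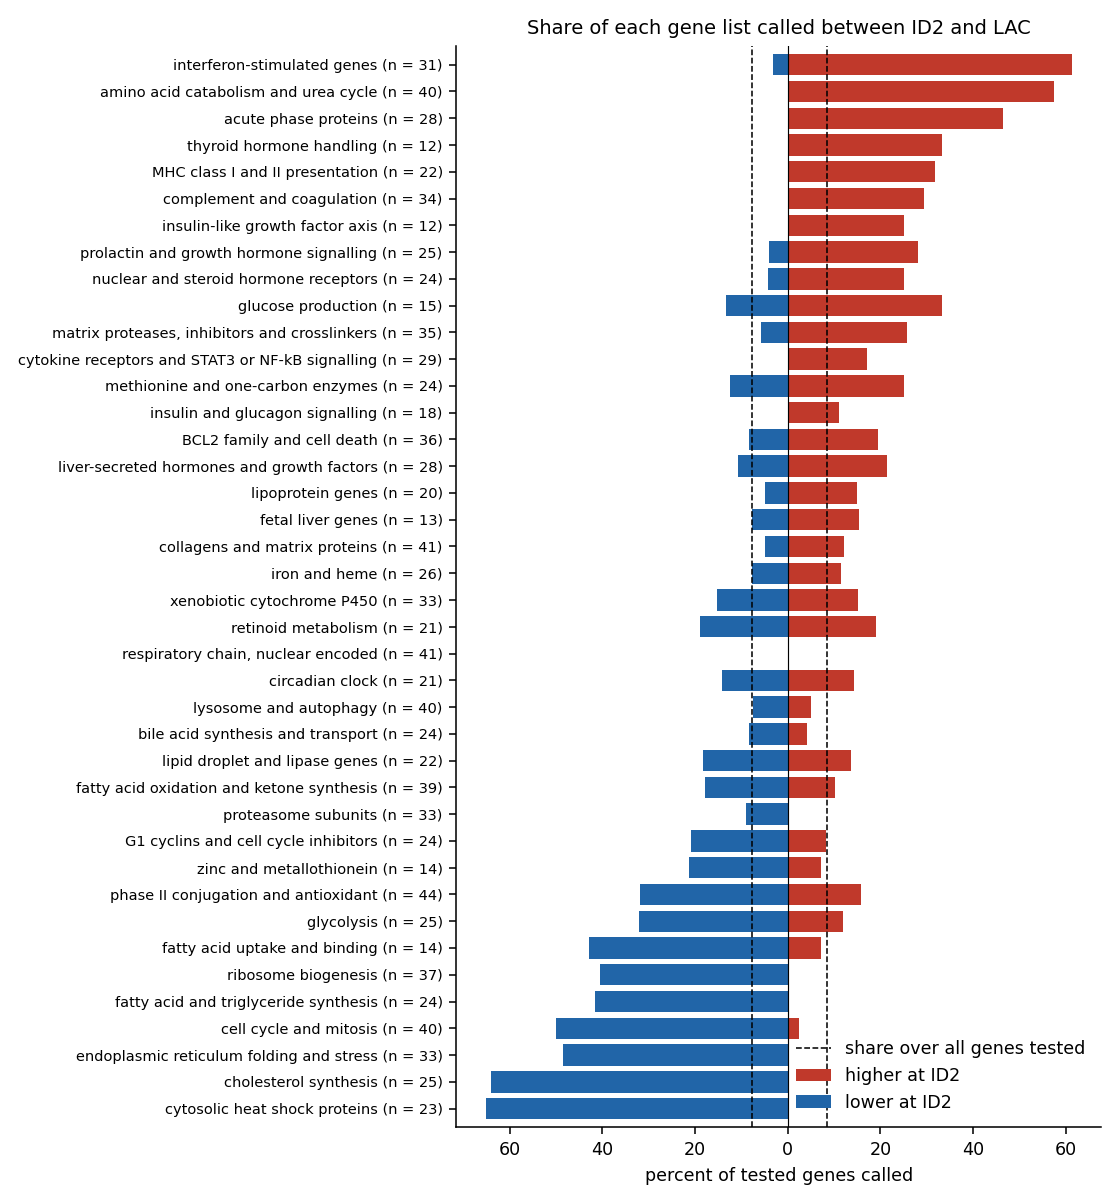
Percent of the tested genes of each of 40 lists called higher (red, to the right) or lower (blue, to the left) at day 2, with dashed lines at the share over all genes tested (8.48% and 7.64%). Interferon-stimulated genes, amino acid enzymes and acute phase proteins reach furthest to the right, and heat shock, cholesterol synthesis and cell cycle genes furthest to the left.

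Smaller groups held a few called genes each. Among retinoid genes 4 of 21 were called higher and 4 lower: Rdh11, a retinal reductase, fell by 1.25 ± 0.25 (adjusted p = 0.00216), the retinaldehyde dehydrogenase Aldh1a1 fell from 525, 459 and 436 CPM to 251, 244 and 280 CPM (−0.87 ± 0.18, adjusted p = 0.0018), and the retinol dehydrogenase Rdh9 rose by 1.14 ± 0.26 (adjusted p = 0.0047), with no call under the clock score term. Of 14 zinc genes 3 were called lower and 1 higher (none higher without ID2_224, ID2_39, LAC_200 or LAC_213 or with either term), with the zinc importer Slc39a4 at 45.2, 52.9 and 47.0 CPM against 92.2, 93.1 and 83.9 CPM (−0.89 ± 0.16, adjusted p = 0.000621). The manganese exporter Slc30a10, counted in the same list, fell by 0.72 ± 0.13 (adjusted p = 0.000346). Ferroportin (Slc40a1), the iron exporter that hepcidin acts on, rose from 146, 179 and 129 CPM to 229, 209.4 and 219 CPM (0.54 ± 0.12, adjusted p = 0.00327). The lysosome and autophagy list had 2 of 40 genes called higher and 3 lower, a share under that of all genes tested, and its cathepsins split: Ctsl rose by 0.44 and Ctsz fell by 0.51. Of that list 1 was called lower without ID2_31, and 1 higher with the title number as a term, while DESeq2 called 6 lower.

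Nuclear receptors were called higher in 6 of 24 and lower in 1, with 0 to 6 called higher without a single library: none without LAC_213 and 3 without ID2_39 or LAC_200. The title number left 1 called higher and the clock score none, limma on log2 TPM called 1 or 3 higher by pseudocount, and none was called lower without ID2_39 or LAC_213 or with either term. Nr3c1, the glucocorticoid receptor, had 71.9, 76.7 and 74.4 CPM at day 2 against 58.0, 48.0 and 60.1 CPM (0.43 ± 0.10, adjusted p = 0.00657, and 0.0621 without LAC_213). Esr1, the oestrogen receptor, had 28.2, 27 and 36.7 CPM against 17.8, 20.4 and 24.2 CPM (0.56 ± 0.18, adjusted p = 0.0315) and was called in 3 of the 6 fits without a library. Neither Nr3c1 nor Esr1 was called with either term. Lect2, a chemotactic protein secreted by hepatocytes, rose from 83.5, 83.8 and 80.7 CPM to 192, 139 and 155 CPM (0.97 ± 0.14, adjusted p = 3.38e-05). Sdc1, a heparan sulphate proteoglycan that takes up lipoprotein remnants on hepatocytes and marks plasma cells, rose from 381, 333 and 399 CPM to 690, 642 and 861 CPM (0.98 ± 0.13, adjusted p = 1.73e-05), and was the only 1 of 18 B and plasma cell markers called, with 2 called higher without ID2_224, ID2_39 or LAC_200 or with the clock score, 3 by DESeq2, and 1 called lower without ID2_31. Cyp27a1, which starts the alternative route to bile acids, fell by 0.78 ± 0.14 (adjusted p = 0.000423), and Slc51b, a subunit of the basolateral bile acid exporter, rose by 1.36 ± 0.28 (adjusted p = 0.00137).

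Further genes were named by the size of their change among called genes with separate groups and a mean log2 CPM of 1 or more. Hcn3, an ion channel subunit, had 3.12, 5.17 and 3.88 CPM at day 2 against 33.6, 38.4 and 37.0 CPM (−3.16 ± 0.43, adjusted p = 7.19e-05). Aacs, which turns ketone bodies into acetoacetyl-CoA for lipid synthesis, fell from 188, 182 and 177 CPM to 20.5, 29.1 and 34.8 CPM (−2.70 ± 0.59, adjusted p = 0.00418). Eif4ebp3, an inhibitor of translation initiation, had 2.31, 2.48 and 2.18 CPM against 13.7, 17.0 and 13.9 CPM (−2.67 ± 0.59, adjusted p = 0.00434). With the title number as a term its change was −2.02 and its adjusted p 0.086. In these 3 genes every day-2 library lay far below every lactation library. The phosphatase Phospho1 fell by 2.37 ± 0.31 (adjusted p = 1.62e-05) and the mitotic kinase Nek2 by 2.34 ± 0.33 (adjusted p = 3.41e-05). Slc22a7, an organic anion transporter, rose from 22.5, 21.5 and 16.5 CPM to 75.9, 49.9 and 116 CPM (2.00 ± 0.32, adjusted p = 0.000294). Spry4, a feedback inhibitor of receptor tyrosine kinase signalling, rose from 1.74, 1.96 and 2.82 CPM to 11.9, 5.60 and 9.25 CPM (2.04 ± 0.49, adjusted p = 0.0082), with no call under the clock score term. The neurotrophin receptor gene Ntrk2 had 2.87, 11.1 and 4.07 CPM against 0.328, 1.27 and 1.32 CPM (2.64 ± 0.85, adjusted p = 0.0387), with ID2_31 the highest, and was called in only 1 of the 6 fits without a library and with neither term. Its change was 1.83 without ID2_31. Nnmt, which methylates nicotinamide, rose from 24.4, 35.0 and 19.9 CPM to 84.4, 72.3 and 185 CPM (2.11 ± 0.54, adjusted p = 0.0117), and missed the threshold without ID2_39 and with the clock score as a term. The chemokine Cxcl1 (2.21 ± 0.63, adjusted p = 0.0215) and the keratin Krt23 (2.07 ± 0.62, adjusted p = 0.0269) are members of the neutrophil and bile duct lists. Each was called in 1 of the 6 fits without a library and lost the call with the title number, and Cxcl1 also with the clock score.

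Among the called genes that moved most in CPM, the amino acid transporter Slc38a3 rose from 1403, 1287 and 1425 CPM to 1890, 2060 and 2889 CPM (0.73 ± 0.17, adjusted p = 0.00405). Plasminogen (Plg) rose by 0.44 ± 0.12 (adjusted p = 0.0161), with an adjusted p of 0.0761 without ID2_39 and 0.0685 without LAC_200. The plasma protein Itih4 rose by 0.50 ± 0.16 (adjusted p = 0.0383), with a change of 0.29 without ID2_39 and a call in 1 of the 6 fits without a library. None of those 3 was called with the title number or the clock score as a term. Insig1, which retains the sterol regulatory factors in the endoplasmic reticulum, had 239.3, 307 and 267 CPM against 593, 673 and 1060 CPM (−1.52 ± 0.48, adjusted p = 0.0375) and was called in 1 of the 6 fits without a library and not with the title number. Gstm1, a glutathione transferase, fell by 0.84 ± 0.14 (adjusted p = 0.000294). The P450 genes Cyp2c40 and Cyp2c69 fell by 0.59 ± 0.14 (adjusted p = 0.00498) and 0.83 ± 0.26 (adjusted p = 0.0345). Both lost the call with the title number, and Cyp2c69 also with the clock score (−0.57, adjusted p = 0.282) and in 5 of the 6 fits without a library. Gstm1 and the Cyp2c genes have close copies between which reads may be split.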

How the data were processed

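Liver RNA of 27 samples was sequenced, and the 3 libraries of day 2 after weaning were compared with the 3 of lactation. Per the submitters' processing notes the authors used STAR 2.6.1a and RSEM 1.3.1 with mm10 (GRCm38). The deposited gene tables hold expected counts (reads per gene as RSEM estimates them, which split shared reads between similar genes), TPM (per effective length, scaled to a fixed total) and effective lengths, per the file headers. Annotation version, trimming and strand are not given in the sources used here, so overlapping genes on opposite strands may share counts. Gene names came from GENCODE M21, which holds 51633 of the 51826 deposited identifiers. The other 193 identifiers hold 0.0147% of the counts.

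The expected counts, rounded, were tested with edgeR 4.0.16 (R 4.3.3): filterByExpr by stage, TMM scaling, all 27 libraries in 1 quasi-likelihood fit of their stages, and the contrast of day 2 with lactation, with Benjamini-Hochberg adjustment over the 16428 genes tested. The fit was also run on simulated counts in which a small set of genes was changed. That simulation held no batch, clock or contamination effect, so it cannot speak to those. Biological coefficient of variation was 0.19. Alternatives were DESeq2 1.42.0, its size factors in edgeR, other count filters, limma 3.58.1 on log2 TPM, an effective length offset, other library sizes, the 6 libraries alone, an adjusted p under 0.01, covariates for title number and clock score, and leaving out each library. The gene lists and the named genes were chosen with earlier results of these data known, and lists are described by counts and medians. Genes were named by rule, first the 15 largest rises and 15 largest falls. Those were drawn from called genes with separate groups, a mean log2 CPM of 1 or more and no placeholder symbol. The rule also took the 10 largest gains and 10 largest losses in CPM among called genes. Up to 6 called members per list by size of change and defining genes of the lists were added. Outside that rule, 27 list members (Gpam, Hmgcs1, Acaa1b, Ehhadh, Bdh1, Fah, Amdhd1, Cps1, Tat, Hspa8, Hspb1, Atf4, Ern1, Dnajc3, Nop16, Mcm7, Pcna, Tk1, Rbl2, Bak1, Serpina3n, Saa4, Lbp, Bst2, Nfe2l2, Txnrd1 and Srxn1) were named after their values were seen. Promoter sequences are from RefSeq (GRCm38.p6). Some genes that these rules pick, list members among them, are not reported by name here.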

Additional observations from a re-analysis of the deposited data

Results flagged for a closer look

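Of the 22 genes whose nulliparous levels were looked at, 4 had 1 nulliparous library far from the others of that group by Dixon's test, which chance flags in about 1 of 20 groups. Hspa5 was 1812 CPM in 1 library against 1081, 1035 and 1161 CPM in the others. Pnpla3 was 10.7 CPM in another library against 3.34, 4.53 and 4.13 CPM. Saa1 was 88.5 CPM against 12.7, 9.08 and 15.6 CPM. Gbp2 was 12.5 CPM against 7.06, 7.72 and 7.95 CPM. The upper ends of the nulliparous ranges given for these genes therefore each rest on 1 library.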

How the results depend on the processing

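The count of 2648 called genes stayed within a factor of 1.5 under DESeq2 (3018), DESeq2's size factors (2653), both other count filters (2082 and 2754), the 6 libraries alone (2693), limma on log2 TPM (1827 and 1886), the length offset (2040), other library sizes (2688) and the clock score (1770). It was 1127 at an adjusted p under 0.01, 1249 with the title number as a term and 395 with the title numbers of 200 and over alone, where the lone day-2 library is assumed to vary like the other groups. Without a single library it was between 1389 and 2160: 1746, 1739 and 1681 without ID2_224, ID2_31 and ID2_39, and 1389 without LAC_213. The cause was not tested. Of the 283 called genes that the naming rule or the later additions picked, 121 lost the call with the title number as a term, 106 with the clock score, 117 at an adjusted p under 0.01, 200 of 280 with the title numbers of 200 and over alone, 58 to 98 without a single library and 55 or fewer under each other setting, none of them by a change of direction except the acinar genes Cela2a and Ctrb1. Without ID2_31 their log2 changes were −0.13 and −0.76, and over the fits without a single library they ran from those values to 14.88 and 15.98. No paired analysis was possible because the replicate numbers of the groups are not shared. Depth limits what can be said of genes with few counts or none, such as the casein genes.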
